A study of Homo sapiens with 12 samples.

Results

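MAPK3, PLCG1 and STAT3 encode 3 proteins that work inside the cell below growth factor receptors: the kinase ERK1, the phospholipase PLC-gamma1 and the transcription factor STAT3. They were taken by name as 3 of the 770 genes of a NanoString nCounter panel for tumour progression, and they had been picked with their changes in these data already known. The cells were HCT-116, an established human colorectal carcinoma line, and RNA was taken after 24 h. There were 4 groups with 3 samples each: heteronemin, a sesterterpenoid from a marine sponge; tetrac, or tetraiodothyroacetic acid, a deaminated derivative of the hormone thyroxine; the combination, labelled Heteronemin+Tetrac; and a control group. The sources used here do not give the doses, what the control cells received, or whether replicates were separate cultures, so the authors' p-values may reflect technical spread.

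When a ligand such as EGF binds its receptor, the receptor's phosphorylated tyrosines recruit adaptors and enzymes. One branch passes through RAS, RAF and MEK to the ERK kinases, which phosphorylate transcription factors. PLC-gamma1 docks on the receptor and cleaves a membrane phospholipid, which releases calcium and activates protein kinase C. STAT3 is phosphorylated by receptor-linked kinases, pairs through its SH2 domain and enters the nucleus to bind DNA. All 3 proteins are switched by phosphorylation, and the panel counts transcripts, so their activity was not measured. The study's title names EGFR-mediated signalling as its subject, and the comparisons below ask how far the transcripts of these effectors differed between treated and control cells.

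Each table gives 1 value per group for each gene, the authors' mean of normalized counts, with no value per sample, so no SD can be given and the raw depth is unknown. The panel sum of these means was 280484 after heteronemin, 306898 after tetrac, 297671 after the combination and 333810 in control. The lowest value in the tables was 33, a floor at which 70, 61 and 90 genes stood in the treated groups in that order, against 279 in control. The geometric mean of the 30 housekeeping genes lay between 296.1 and 299.6 in all 4 groups. Of 10 measured markers of colon epithelium, 9 had means of 100 or more after heteronemin and 8 in each other group. Their summed means were 7827, 8029 and 8683 in the treated groups and 8802 in control. These markers did not move in 1 direction. EPCAM, an epithelial adhesion protein, had 1403, 1581 and 1520 in the treated groups and 1814 in control. CEACAM6 had 118.1, 61.0 and 70.1 in the treated groups and 48.1 in control. The leukocyte marker PTPRC stood at 41.1, 37.9 and 38.9 in the treated groups and at the floor in control. The highest marker of fibroblasts, COL1A1, had 144.3, 86.0 and 133.3 in the treated groups against 67.2 in control. The summed means of the other lists were 287.1 to 347.4 in the treated groups against 234.0 in control for 7 endothelial markers, 130.0 to 158.3 against 99 for 3 blood cell markers, and 379.7 to 562.9 against 298.9 for 8 fibroblast and mural cell markers. In control, 5, 3 and 5 of these markers were at the floor, and the endothelial receptor gene TEK was there in all 4 groups. Their part in the results below was not tested.

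MAPK3 had the largest difference of the 3 genes. Its mean was 340.4 after heteronemin, 475.9 after tetrac and 343.3 after both agents, against 585.6 in control. The heteronemin and combination means were 58.1% and 58.6% of control, and the tetrac mean was 81.3%. In the authors' deposited table the folds were 1.72, 1.23 and 1.71 lower, with p = 0.02, 0.04 and 0. The authors gave 2 decimals, so 0 means under 0.005, and which test they ran is not known here. Of the 3 genes, only MAPK3 passed the unadjusted threshold of 0.05 in every comparison of the authors' deposited tables.

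PLCG1 showed the same order of groups with smaller differences. Its mean was 270.6 after heteronemin, 333.9 after tetrac and 283.2 after both agents, against 377.9 in control. These are 71.6%, 88.4% and 74.9% of the control mean. In the authors' deposited table the folds were 1.40, 1.13 and 1.33 lower, with p = 0, 0.07 and 0.01, so the tetrac difference did not pass.

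STAT3 differed least. Its mean was 494.0 after heteronemin, 570.7 after tetrac and 552.5 after both agents, against 632.0 in control. The treated means were 78.2%, 90.3% and 87.4% of control. In the authors' deposited table the folds were 1.28, 1.11 and 1.14 lower, with p = 0, 0.31 and 0.07, so the heteronemin difference passed and the tetrac and combination differences did not. The size of a fold and its p did not run together across the genes after heteronemin: the 1.72-fold difference of MAPK3 had p = 0.02 in the authors' deposited table, while the 1.28-fold difference of STAT3 had a p under 0.005.

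**Figure D1:**
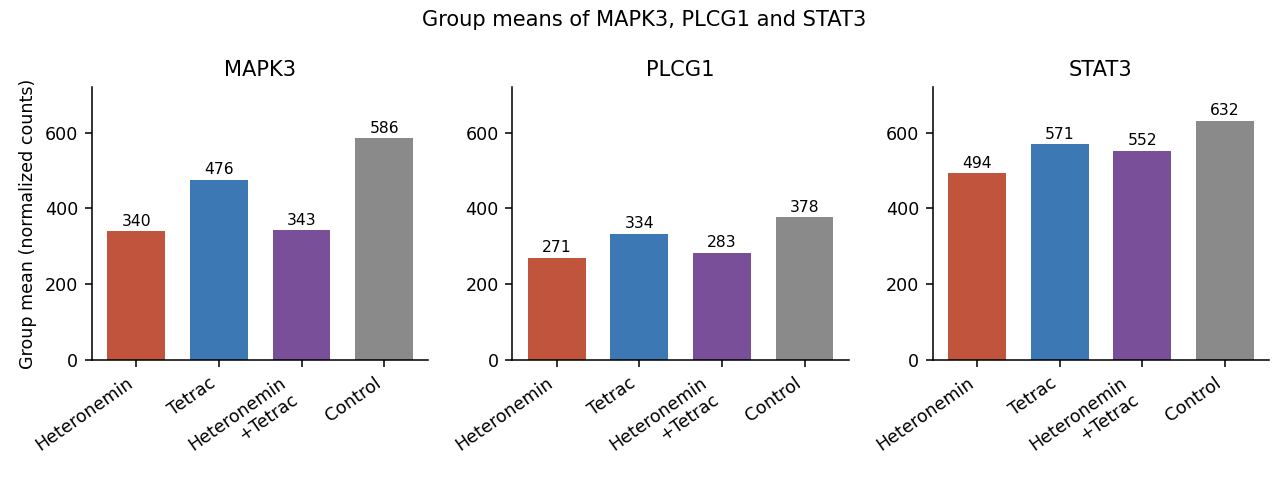
Bars show the authors' mean of normalized counts (vertical axis, from 0) for each gene in the heteronemin, tetrac, Heteronemin+Tetrac and control groups; each bar is 1 deposited value over 3 samples, so there are no error bars. The control bar is the tallest for each gene, at 586, 378 and 632, and on this deposited scale the heteronemin bar is the lowest, at 340, 271 and 494.

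In counts, 3 of the 3 genes were lower at the authors' p under 0.05 after heteronemin, 1 after tetrac and 2 after both agents. Over all tested genes, the share called lower in the authors' deposited tables was 15.9% for heteronemin (112 of 704), 0.98% for tetrac (7 of 714) and 14.1% for the combination (97 of 686). All 3 genes had a level of 100 or more, and over the 356 genes that reached it the shares were 28.9%, 1.97% and 25%. Because the genes were chosen on these values, nothing is read from that contrast. After Benjamini-Hochberg adjustment over all genes of a table, PLCG1 and STAT3 passed for heteronemin and MAPK3 for the combination when the printed p was used, where 5.82% of tested genes passed for heteronemin, 0% for tetrac and 7% for the combination. An authors' p printed as 0 gives an adjusted p of 0 through rounding alone, and these passes all came from such values. With the largest p that rounds to the printed one, 0% of tested genes passed in each table, and so none of the 3. The adjusted p was then 0.0859 for PLCG1 and STAT3 after heteronemin and 0.0715 for MAPK3 after the combination, from the p-values of the authors' deposited tables.

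The 3 genes lie on different chromosomes. The 250 bases before each start site are shown as a description, and no link between them and the group means was tested. Sequences are from RefSeq on GRCh38.p14, 5′ to 3′ on the gene's strand, and capitals mark the GC box (GGGCGG on either strand), a motif bound by SP1-type factors. MAPK3 is at chr16:30123221-30123470 on the minus strand, PLCG1 at chr20:41137293-41137542 on the plus strand and STAT3 at chr17:42388443-42388692 on the minus strand.
MAPK3: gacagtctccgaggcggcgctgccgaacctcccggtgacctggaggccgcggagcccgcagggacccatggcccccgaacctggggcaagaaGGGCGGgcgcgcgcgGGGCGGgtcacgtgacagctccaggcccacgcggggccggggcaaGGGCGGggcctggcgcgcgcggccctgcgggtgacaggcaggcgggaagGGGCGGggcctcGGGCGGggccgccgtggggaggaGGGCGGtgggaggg
PLCG1: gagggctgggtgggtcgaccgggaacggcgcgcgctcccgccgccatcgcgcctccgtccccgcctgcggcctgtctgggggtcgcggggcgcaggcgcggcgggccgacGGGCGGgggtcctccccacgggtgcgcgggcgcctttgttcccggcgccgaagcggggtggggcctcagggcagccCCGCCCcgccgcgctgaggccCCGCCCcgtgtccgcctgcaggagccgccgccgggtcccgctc
STAT3: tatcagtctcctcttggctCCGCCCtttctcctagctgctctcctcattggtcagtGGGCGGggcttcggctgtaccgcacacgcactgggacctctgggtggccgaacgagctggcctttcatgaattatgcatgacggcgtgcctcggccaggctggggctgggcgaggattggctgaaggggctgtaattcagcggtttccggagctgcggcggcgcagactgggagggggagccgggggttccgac

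The MAPK3 window held 6 GC boxes, the PLCG1 window 3 and the STAT3 window 2. At least 1 GC box was present in 61.1% of the 566 panel genes with a window in the table and in 42.6% of all 35114 windows, and 3 or more were present in 25.3% and 13.9%. The GC content was 80.4% for MAPK3, 82.8% for PLCG1 and 64.4% for STAT3, against a median of 63.6% over the panel windows. The MAPK3 window also held 1 E-box (CACGTG), 135 to 130 bases before the start, a motif found in 7.42% of panel windows and 6.35% of all windows. The STAT3 window held 2 inverted CCAAT boxes (CCAAT), where 32.7% of panel windows and 32.0% of all windows held at least 1. A further 4 motifs were searched on both strands and matched in none of the 3 windows: the cyclic AMP response element TGACGTCA (2.83% of panel windows, 1.65% of all), the AP-1 site TGANTCA (7.07% and 6.57%), the STAT site TTCNNNGAA (6.01% and 6.57%) and the TATA box TATAAA (14.7% and 10.7%). No 2 matches of different motifs overlapped. A match describes letters in the window and nothing about binding in these cells.

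On the deposited scale, the levels of all 3 genes ran in 1 order: lowest after heteronemin, then the combination, then tetrac, and highest in control. At an equal panel sum, and also after subtracting the median of genes of like level, heteronemin and the combination changed places for MAPK3 and PLCG1. The log2 ratio of the combination over heteronemin was then -0.073 and -0.084 for MAPK3 and -0.020 and -0.021 for PLCG1, in place of 0.012 and 0.065, while for STAT3 it was 0.076 and 0.069 in place of 0.16. Whether neighbours in that order differ beyond their spread cannot be said, because the tables hold no values per sample and no test between treated groups. The combination and heteronemin means of MAPK3 lay 0.858% apart, those of PLCG1 4.63% and those of STAT3 11.8%. For STAT3 the combination lay nearer to tetrac, at 3.19% below the tetrac mean, whereas for MAPK3 it was 27.9% and for PLCG1 15.2% below. The same order was found for 102 of the 356 panel genes whose level was at least 100 when averaged across groups, a share of 28.7%. The EGF receptor gene EGFR was among them, with means of 385.5 after heteronemin, 462.4 after tetrac and 403.7 after both agents, against 501.6 in control.

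Heteronemin was set beside tetrac through their means. The heteronemin mean was 28.5% below the tetrac mean for MAPK3, 18.9% below for PLCG1 and 13.4% below for STAT3. On the log2 scale these differences were -0.48, -0.30 and -0.21, where the median over the 356 genes was -0.09. As a share of the heteronemin log2 ratio, the tetrac log2 ratio was 38.2% for MAPK3, 37.1% for PLCG1 and 41.4% for STAT3, near the median of 43.6% over the 229 panel genes at that level that were lower after both agents given singly. These shares depended on the scaling. They were 39.0%, 38.3% and 43.3% at an equal housekeeping geometric mean, which lies close to the deposited scale. At an equal panel sum they were 33.5%, 24.8% and 24.9%, and after level correction 32.7%, 37.2% and 8.41%. Heteronemin and tetrac were both compared with the same control samples, so these pairs of ratios are not independent.

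The combination was also compared with what the single agents would give if their log2 ratios added up. For MAPK3 the sum was -1.08 and the combination -0.77, so the combination mean of 343.3 stood above the additive value of 276.6. PLCG1 had a sum of -0.66 and a combination ratio of -0.42, with means of 283.2 against 239.1. STAT3 had a sum of -0.50 and a combination ratio of -0.19, with means of 552.5 against 446.1. The departure was therefore positive for each, at 0.31, 0.24 and 0.31 on the log2 scale, and it could not be tested. It was smaller at an equal panel sum, at 0.10, 0.037 and 0.10, and after level correction, at 0.062, 0.098 and 0.081. Positive departures were common on the panel. They were seen in 265 of the 356 genes at a level of 100 or more (74.4%), and in 206 of the 229 that were lower after both single agents (90.0%), where the median departure was 0.24. The control mean enters the departure and both single ratios.

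**Figure D2:**
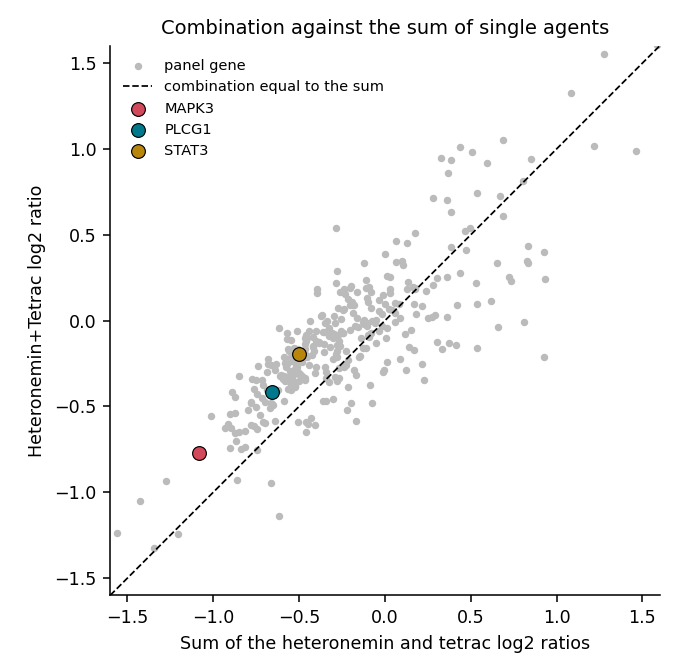
Each point is a panel gene with a mean level of 100 or more; the horizontal axis is the sum of its heteronemin and tetrac log2 ratios against control, the vertical axis its Heteronemin+Tetrac log2 ratio, and the dashed line marks equality. MAPK3, PLCG1 and STAT3 lie above the line by 0.31, 0.24 and 0.31, among many grey points that do the same, on the deposited scale; 5 genes fall outside the axes.

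Genes at high levels on the panel tended to be lower in treated cells, so each of the 3 genes was set beside the genes of like level. MAPK3 lay near the low end of them. Its heteronemin log2 ratio was -0.78, where the median of the 51 genes nearest in level was -0.23, and 1 of its 50 neighbours had a lower ratio. After tetrac it had -0.30 against a median of -0.12, with 0 of 50 neighbours lower. After the combination it had -0.77 against -0.15, with 2 of 50 lower. Among all 356 genes at a level of 100 or more, MAPK3 ranked 8 from the lowest after heteronemin, 4 after tetrac and 9 after both agents. Because the 3 genes were picked with their changes known, their places among other genes are a description and not a test.

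PLCG1 lay in the lower part of its neighbours. Its log2 ratio was -0.48 after heteronemin, -0.18 after tetrac and -0.42 after both agents, where the medians of genes of like level were -0.17, -0.06 and -0.09. The neighbours with lower ratios numbered 7, 9 and 6 of 50.

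STAT3 was close to the middle of its neighbours in each comparison. Its log2 ratio was -0.36 after heteronemin, -0.15 after tetrac and -0.19 after both agents, where the medians of genes of like level were -0.32, -0.14 and -0.20. The neighbours with lower ratios numbered 20, 21 and 26 of 50. Thus the STAT3 difference from control, although under p = 0.05 for heteronemin in the authors' deposited table, was of the size seen in panel genes of its level. Scaling the 4 groups to an equal panel sum would raise every log2 ratio by 0.25 for heteronemin, 0.12 for tetrac and 0.17 for the combination. STAT3 would then have -0.10, -0.03 and -0.03, and MAPK3 -0.53, -0.18 and -0.61.

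**Figure D3:**
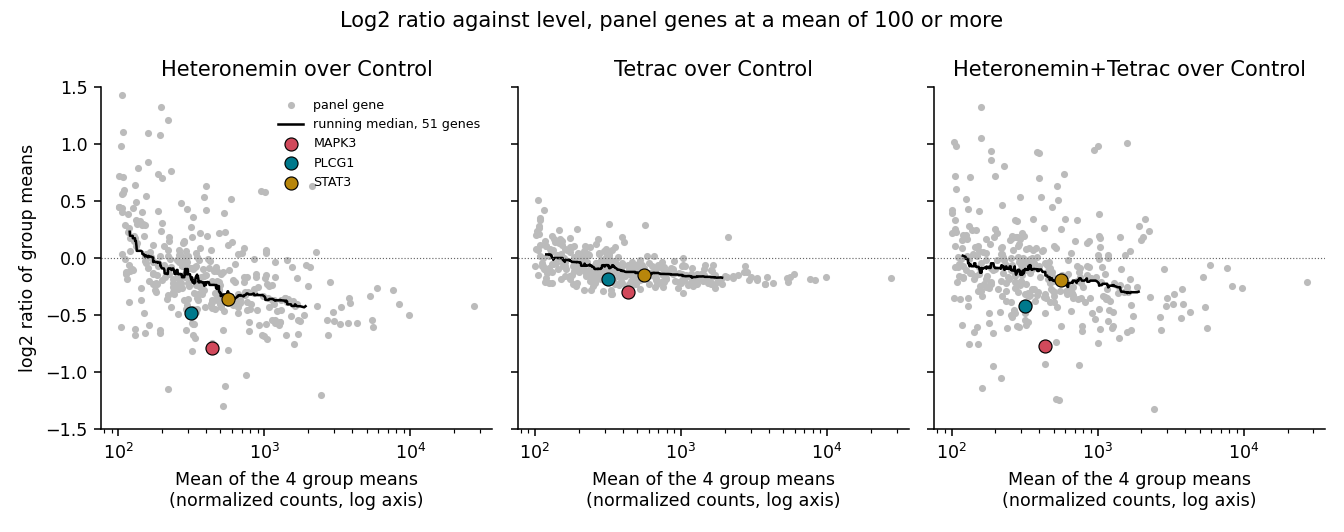
Grey points are panel genes with a mean level of 100 or more (horizontal log axis, normalized counts), by their log2 ratio of treated over control means (vertical axis), for heteronemin, tetrac and Heteronemin+Tetrac; the black line is the running median of 51 genes. MAPK3 lies well below the line in each panel, at -0.78, -0.30 and -0.77, PLCG1 somewhat below and STAT3 on it; 2 genes in the heteronemin panel and 5 in the combination panel fall outside the axes.

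PLCG2, which encodes the PLC-gamma2 isoform best known from blood cells, gave a further comparison. It had 166.7, 176.4 and 201.5 in the treated groups against 184.8 in control, and was not called, with p = 0.52, 0.66 and 0.27 in the authors' deposited table. Its log2 ratio was -0.15 after heteronemin, -0.07 after tetrac and 0.13 after both agents, where PLCG1 had -0.48, -0.18 and -0.42; the difference between the isoforms was not tested.

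The kinase cascade that leads to ERK1 was followed within a wider list, which also holds genes of other MAP kinase pathways. Of 33 listed genes of RAS, RAF, MEK and the MAP kinases, 12 were measured. After heteronemin, 2 of them were called lower and 0 higher: MAPK3 and MAP3K7, which encodes the kinase TAK1, at a mean of 590.9 against 683.6 in control. Level correction changed the heteronemin log2 ratio from -0.78 to -0.55 for MAPK3 and from -0.21 to 0.14 for MAP3K7. Over all tested genes 15.9% were called lower after heteronemin, 0.98% after tetrac and 14.1% after both agents. At a level of 100 or more, which both of these genes reached, the shares were 28.9%, 1.97% and 25%. After tetrac and after the combination, MAPK3 was the 1 gene called lower, and 0 were called higher. The MEK genes MAP2K1 and MAP2K2, whose products phosphorylate ERK1, had log2 ratios of 0.07 and 0.05 after heteronemin, -0.06 and -0.06 after tetrac, and 0.26 and 0.15 after the combination, none of them called. The list median was -0.22, -0.14 and -0.15, where the median of all tested genes was 0.23, 0.07 and 0.17. For the 11 of 12 genes that reached a level of 100, the medians were -0.23, -0.14 and -0.15 for the list and -0.19, -0.11 and -0.15 for the panel.

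Of 29 listed genes of the phospholipase C, protein kinase C, calcium signalling and NFAT families, 9 were measured. After heteronemin 4 of the 8 tested were called lower and 0 higher, after tetrac 0 of 9 in either direction, and after the combination 3 of 8 lower and 0 higher. Over all tested genes 15.9%, 0.98% and 14.1% were called lower, and 28.9%, 1.97% and 25% of those at a level of 100 or more, which all the called genes of this list reached. With PLCG1, these were CAMK2D, a subunit of the calcium- and calmodulin-dependent kinase II, NFAT5, the tonicity-responsive member of the NFAT family, and, after heteronemin, PRKCZ, an atypical protein kinase C. CAMK2D had 1376 after heteronemin and 1416 after the combination, against 2186 in control, or 1.59-fold and 1.54-fold lower in the authors' deposited table. NFAT5 had 429.7 and 399.7 against 665.6 in control, or 1.55-fold and 1.66-fold lower in the authors' deposited table. PRKCZ had 201.6 after heteronemin against 225.8 in control, and its combination mean of 187.0 had p = 0.19 in the authors' deposited table. The difference of PRKCZ between heteronemin and the combination was not tested. After level correction the heteronemin log2 ratios of CAMK2D, NFAT5 and PRKCZ were -0.29, -0.33 and -0.06. The list median over genes at a level of 100 or more was -0.32 after heteronemin, -0.13 after tetrac and -0.34 after both agents, against -0.19, -0.11 and -0.15 over the panel.

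Of 26 listed JAK and STAT genes, 5 were measured. STAT3 was 1 of 2 called lower after heteronemin; 0 were called lower after tetrac and 1 after the combination, which was not STAT3. In no comparison was a gene of this list called higher. The shares of all tested genes called lower were 15.9% for heteronemin, 0.98% for tetrac and 14.1% for the combination. At a level of 100 or more, which the called genes of this list reached, these shares were 28.9%, 1.97% and 25%. For the 3 genes of the list at that level, the median log2 ratios were -0.35, -0.13 and -0.19. Those over the panel were -0.19, -0.11 and -0.15. IL6, the cytokine that signals to STAT3 through gp130, was close to the floor, at 36.4, 35.3 and 41.0 in the treated groups against 33.2 in control. LIFR, the receptor of leukaemia inhibitory factor, had 156.5, 134.0 and 116.3 against 127.3 in control and was not called.

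**Figure D4:**
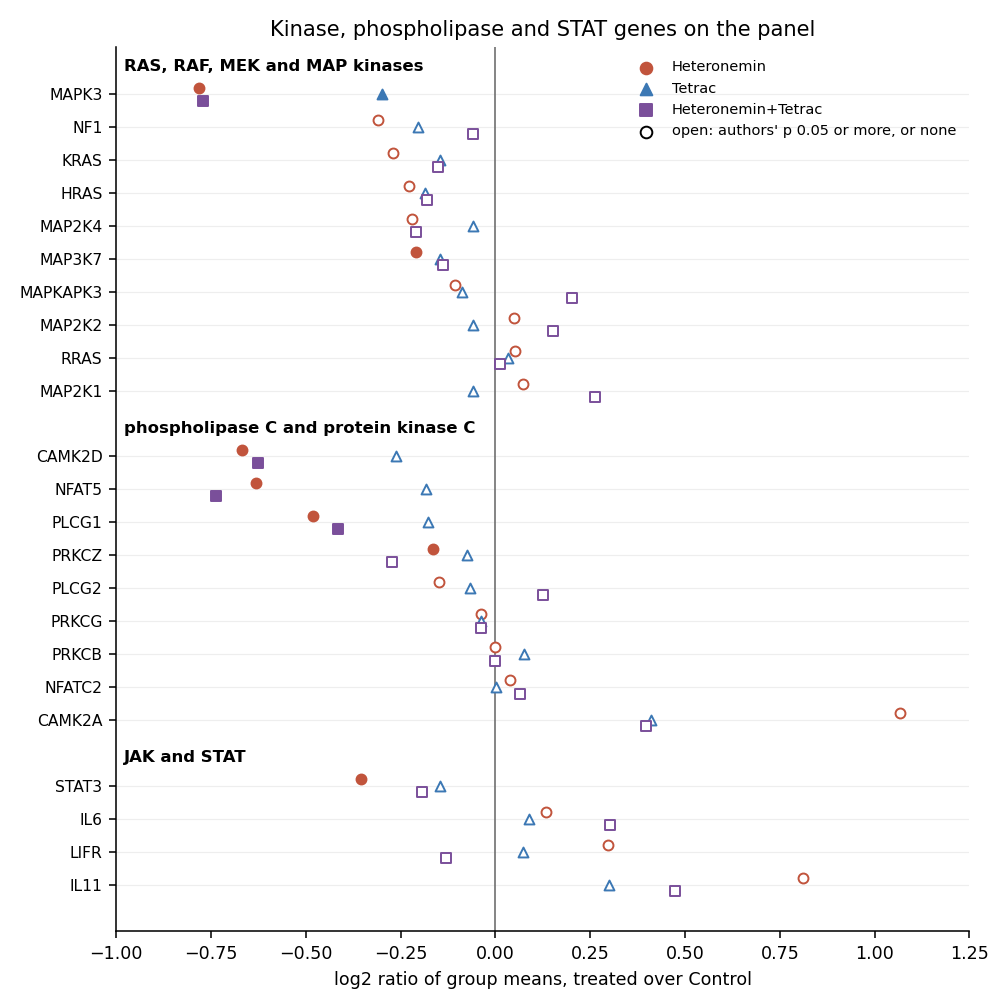
Each row is a gene of the list RAS, RAF, MEK and MAP kinases, of phospholipase C and protein kinase C, or of JAK and STAT. The horizontal axis is the log2 ratio of treated over control means for heteronemin (circles), tetrac (triangles) and Heteronemin+Tetrac (squares). Filled symbols have p under 0.05 in the authors' deposited tables; MAPK3 is the only gene shown with all 3 symbols filled.

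Upstream of the 3 effectors stand ligands, receptors and adaptors. In control, 8 of 16 measured receptors, 7 of 15 ligands and 1 of 7 adaptors were at the floor. The authors gave a p-value for 14 receptors after heteronemin, 15 after tetrac and 14 after both agents. They gave it for 14 ligands and 6 adaptors in each comparison. Of the 16 growth factor receptors, 1 was lower after heteronemin (EGFR), 0 after tetrac and 2 after both agents, EGFR and FGFR3, and 0 were higher in any. FGFR3, a receptor of fibroblast growth factors, had 211.8 after the combination against 295.6 in control, a fold of 1.40 in the authors' deposited table. Of the 15 ligands, PDGFA, a chain of platelet-derived growth factor, was higher after heteronemin, at 118.2 against 86.4 in control, and also after the combination, at 116.1. The PDGFA log2 ratio of 0.45 after heteronemin was 0.013 after level correction, and that of 0.43 after the combination was 0.27. FGF2 and VEGFA, ligands for receptors on fibroblasts and endothelium, were higher after the combination too, at 179.3 against 109.3 and 770.9 against 461.0 in control. FGF9 and PDGFC were lower after the combination, at 108.8 against 170.5 and 136.9 against 167.0 in control. After tetrac 0 ligands were called. Of the 7 adaptors and proximal kinases, PTK2B, the calcium-responsive kinase PYK2, was higher after heteronemin, at 161.5 against 114.8 in control, and 0 others were called in any comparison. The share of all tested genes called lower was 15.9% after heteronemin, 0.98% after tetrac and 14.1% after both agents, and the share called higher was 11.2%, 0.28% and 8.16%. At a level of 100 or more, which EGFR and FGFR3 reached, the shares called lower were 28.9%, 1.97% and 25%.

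Downstream, genes that ERK signalling is known to induce did not move in 1 direction. Of 29 listed, 10 were measured. The largest changes were those of CXCL8, which encodes interleukin-8, at 534.5 after heteronemin and 892.2 after the combination against 65.5 in control, and of JUN, an AP-1 subunit, at 418.9 and 569.5 against 119.4. Both were called higher in both comparisons. After heteronemin, ETV4, an ETS factor often used as a readout of ERK activity, was called lower, at 191.2 against 245.4 in control. After the combination ETV4 was again called lower, at 177.1, and the genes called higher were CXCL8, JUN, VEGFA and PLAUR, the urokinase receptor, at 149.7 against 104.3 in control. After tetrac, PLAU, which encodes urokinase, was the 1 gene called, at 364.8 against 434.2 in control. AREG and EREG, EGF receptor ligands induced through ERK, had 1753 and 2430 after heteronemin against 2071 and 3562 in control. Their p was 0.09 and 0.05 in the authors' deposited table, and they were not called. After the combination AREG lay above control at 2315 and EREG below it at 2803, with p = 0.32 and 0.06 in the authors' deposited table. Thus 1, 1 and 1 of 10 were lower and 2, 0 and 4 higher, beside 15.9%, 0.98% and 14.1% lower and 11.2%, 0.28% and 8.16% higher over all tested genes. Over panel genes at a level of 100 or more, 28.9%, 1.97% and 25% were called lower. The list medians were 0.21, 0.02 and 0.35, beside 0.23, 0.07 and 0.17 over all tested genes. For the 9 genes at a level of 100 or more they were -0.02, 0.01 and 0.18, beside -0.19, -0.11 and -0.15 over the panel.

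Of 28 listed genes that STAT3 is known to induce, 16 were measured and showed no single direction either. In control, 7 of the 16 were at the floor. After heteronemin 4 of 15 tested were called lower and 1 higher, where 15.9% and 11.2% of all tested genes were. The lower ones were TIMP1, an inhibitor of metalloproteinases (929.9 against 1353 in control), HIF1A, the oxygen-regulated transcription factor (1235 against 1582), MMP14, a membrane metalloproteinase (82.4 against 125.3), and FN1, fibronectin (33, the floor, against 46.5). The higher one was ICAM1, an adhesion molecule, at 61.2 against 39.9 in control. After level correction the heteronemin log2 ratios of TIMP1, HIF1A, MMP14 and FN1 were -0.18, 0.0090, -0.89 and -0.84. That of ICAM1 was -0.38 in place of 0.62. After the combination FN1 and MMP14 were lower and FGF2 and VEGFA higher, where 14.1% and 8.16% of all tested genes were, and after tetrac 0 were called. The list medians were 0.52, 0.09 and 0.30, beside 0.23, 0.07 and 0.17 over all tested genes. For the 6 genes at a level of 100 or more the medians were -0.22, -0.10 and 0.04, beside -0.19, -0.11 and -0.15 over the panel. Of these 6, 3 were called lower and 0 higher after heteronemin, and 1 lower and 2 higher after the combination. The share of panel genes at that level called lower was 28.9% after heteronemin and 25% after the combination.

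The genes whose 3 log2 ratios lay nearest to each of the 3 were then found among the 356 genes at a level of 100 or more, by the Euclidean distance over the 3 ratios. Nearest to MAPK3 were ITGB4, the integrin chain of hemidesmosomes, at a distance of 0.130, the transcription factor GTF2I at 0.166 and the proteoglycan VCAN at 0.175. ITGB4 had 809.5 after heteronemin, 1115 after tetrac and 776.4 after both agents, against 1299 in control. Nearest to PLCG1 were ATP5IF1, the inhibitor of the mitochondrial ATP synthase, at 0.0176, the centrosomal protein CEP170 at 0.0200 and the galectin LGALS1 at 0.0659. Nearest to STAT3 were the histone methyltransferase SETD2 at 0.0242, the GTPase RHOA at 0.0278 and the kinase HIPK1 at 0.0319. The 3 effectors were not each other's near neighbours by this distance, which takes in the size of the ratios as well as their order. In distance from MAPK3, PLCG1 ranked 42 and STAT3 123. From PLCG1, STAT3 ranked 90 and MAPK3 182, and from STAT3, PLCG1 ranked 124 and MAPK3 292. All 3 ratios of a gene share the control mean.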

How the data were processed

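Transcripts of HCT-116 cells were counted on the NanoString PanCancer Progression panel, per the labels' protocols, in 12 samples, 3 in each of 4 groups. The authors normalized raw counts with nSolver 4.0, per the series' design text, and deposited 1 table for each treatment. Per the file headers, each gives a signal for the treated group and for control, which is that group's mean after normalization; a score, the signed fold change; and a p-value. The deposited score matched the quotient of the means within 0.00511, and the 3 tables carry identical control values. The authors computed and deposited the p-value with 2 decimals; its test is not given in the sources used here, and it is empty for some genes.

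From the deposited means, log2 ratios of treated over control were computed with no pseudocount or filter. A gene was called at the authors' unadjusted p under 0.05. Benjamini-Hochberg adjustment ran over all genes of a table. Genes of like level were the 51 nearest in the log2 of the mean of the 4 group means. The genes named are MAPK3, PLCG1 and STAT3, EGFR, the relative PLCG2, up to 4 called genes with the largest change per list and comparison, and the 3 nearest in pattern to each of the first 3. MAP2K1, MAP2K2, IL6, LIFR, AREG, EREG, PDGFC, HIF1A, CEACAM6 and the markers of other cell types were named after their values were seen. Some genes that these rules name are not reported here. The genes, the 8 lists (218 genes, 81 measured) and the tests were chosen with earlier results of these data known. Of the 770 symbols, 755 were current in RefSeq and 15 were matched by accession. The scripts for calling, adjustment and level correction were tested on simulated data. Python 3.11.15, numpy 2.4.6, scipy 1.17.1, pandas 2.3.3 and matplotlib 3.10.9 were used.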

Additional observations from a re-analysis of the deposited data

How the results depend on the processing

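The tables hold no values per sample, so leaving out replicates was not possible, and p-values measure only a spread between samples that may be technical. No paired analysis was possible because the columns are group means that carry no replicate number. Other settings moved the counts of the 3 genes called lower as follows. With Benjamini-Hochberg adjustment of the printed p the count was 2 for heteronemin, 0 for tetrac and 1 for the combination; with the largest p that rounding allows it was 0 in all 3. Requiring a 1.5-fold change left 1, 0 and 1. Adjusting the printed p over genes at a level of 100 or more left 2 for heteronemin, 0 for tetrac and 2 for the combination. The median log2 ratio of the 3 genes was -0.48, -0.18 and -0.42. It became -0.23, -0.057 and -0.25 at an equal panel sum, -0.29, -0.073 and -0.27 when centred on the median of genes at 100 or more, and, for heteronemin and tetrac, -0.32 and -0.12 after level correction.

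The median of the combination over heteronemin, 0.065, was -0.020 at an equal panel sum, 0.022 when centred and -0.021 after level correction. For MAPK3 alone this difference, 0.012, was -0.073, -0.031 and -0.084 under the same 3 settings, and for PLCG1 it was -0.020 at an equal panel sum and -0.021 after level correction. The median of heteronemin over tetrac was -0.17 at an equal panel sum. The median departure from additivity, 0.31, was 0.10, 0.16 and 0.081 under the 3 settings. The STAT3 ratio for the combination turned to 0.0046 after level correction and to 0.022 when like level was set by the control mean, a setting added after seeing the data. An equal housekeeping geometric mean shifted the log2 ratios by only 0.017 for heteronemin, 0.0007 for tetrac and 0.0099 for the combination. Under it 27 of 28 values for single genes and medians stayed within 1.5 times. The 1 that moved was the MAPK3 combination over heteronemin, at 0.0051 in place of 0.012. Of 123 values recomputed for single genes over all settings, 70 stayed within 1.5 times, 46 kept their sign but came nearer to 0 by more than that, and 7 changed sign. The cause was not tested.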
